A study of Mus musculus with 14 samples.

Results

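The adipocyte and lipid droplet genes described here are 10 listed genes: Adipoq, Lipe, Plin1, Plin4, Pnpla2, Car3, Cfd, Cidec, Fabp4 and Retn. On the array they were found through the probe sets, each a group of short probes for 1 transcript, whose annotation holds a single gene symbol that is on the list, which gave 16 of the 45101 probe sets and 8 of the 18193 genes named on the array. Plin1 and Cfd were matched by no probe set named in this way and were not analysed here. Total lung RNA of C57BL/6 mice, 20 weeks old, was hybridised to Affymetrix arrays, 1 array per sample. Wild type lungs gave 4 arrays (numbers 1, 3, 4 and 5), lungs lacking the tetraspanin CD151 (CD151KO) gave 5, and lungs lacking the tetraspanin CD9 (CD9KO) gave 5. How each gene was deleted, and whether the arrays of a group came from separate animals, was stated nowhere in the labels used, so p-values reflect only how far these samples scatter, and that scatter may be technical. The RNA is a mixture from all cells of the tissue, so fewer cells of a type and less RNA per cell cannot be told apart.

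Adipocytes store triglyceride in a large lipid droplet whose surface carries perilipins, the family of Plin1 and Plin4, and CIDE proteins such as the product of Cidec. Stored triglyceride is broken down by a chain of lipases, in which the product of Pnpla2 takes the first step and the product of Lipe the next. Adipocytes also secrete hormones and enzymes, among them adiponectin (Adipoq), resistin (Retn) and adipsin (Cfd), and hold much Fabp4, a carrier of fatty acids, and Car3, a carbonic anhydrase. In the lung, fat lies around the large airways and the mediastinum, lipid droplets occur in lipofibroblasts and alveolar macrophages, Fabp4 is also made by capillary endothelium and macrophages, Car3 by skeletal muscle, and Pnpla2 by many cell types.

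The labels were checked on the targeted genes. Cd151 had a signal of 1027 to 1072 in CD151KO against 4867 to 5833 on the other arrays, and Cd9 had 614 to 749 in CD9KO against 7861 to 8501. All 8 lung epithelial markers listed, among them Sftpa1, Sftpb and Hopx, lay above the level filter (a signal of 53.4), as did all 8 measured genes of interest. Wild type number 1 and CD151KO number 1 had the lowest scores on the leading principal component, taken over 12985 genes (-18.5 and -17.2, 37.5% of the variance). The other wild type and CD151KO arrays scored -8.01 to 2.46. CD9KO arrays scored 7.23 to 13.4, so this component also set every CD9KO array apart from all arrays of the other groups. The hybridisation control BioB gave 314 to 354 on wild type arrays, while CD151KO arrays had 363 to 424 and CD9KO arrays 361 to 444, so every wild type array was below every knockout array. Its part in the differences from wild type was not tested.

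Most of these genes had their lowest signals in wild type lungs and higher, more scattered signals in both knockouts. In CD9KO against wild type 4 of the 8 genes rose (Lipe, Car3, Plin4 and Pnpla2) and 0 fell (limma adjusted p under 0.05), beside 5.51% of all genes called in that comparison, 2.88% higher and 2.63% lower. At an unadjusted p under 0.05 there were 6 of 8, beside 25.4% of all genes. In CD151KO against wild type 1 of 8 rose, Lipe, beside 0.778% of all genes called, 0.454% higher and 0.323% lower, and 4 of 8 had an unadjusted p under 0.05 beside 11.1% of all genes. Between the knockouts 1 of 8 differed, Pnpla2, which was lower in CD151KO, beside 10.1% of all genes called, 5.99% higher and 4.12% lower. There 2 of 8 had an unadjusted p under 0.05, beside 27.6% of all genes. The log2 difference was above 0 for 7 of 8 genes in CD151KO (54% of all genes), for 8 of 8 in CD9KO (51.2%) and for 2 of 8 in CD151KO against CD9KO (50.6%). The median log2 difference of the 8 genes was 0.32 in CD151KO and 0.48 in CD9KO against wild type, and -0.11 in CD151KO against CD9KO, where the medians of all genes tested were 0.0079, 0.0037 and 0.0016. The comparisons against wild type share the 4 wild type arrays, so they are not independent of each other.

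**Figure D1:**
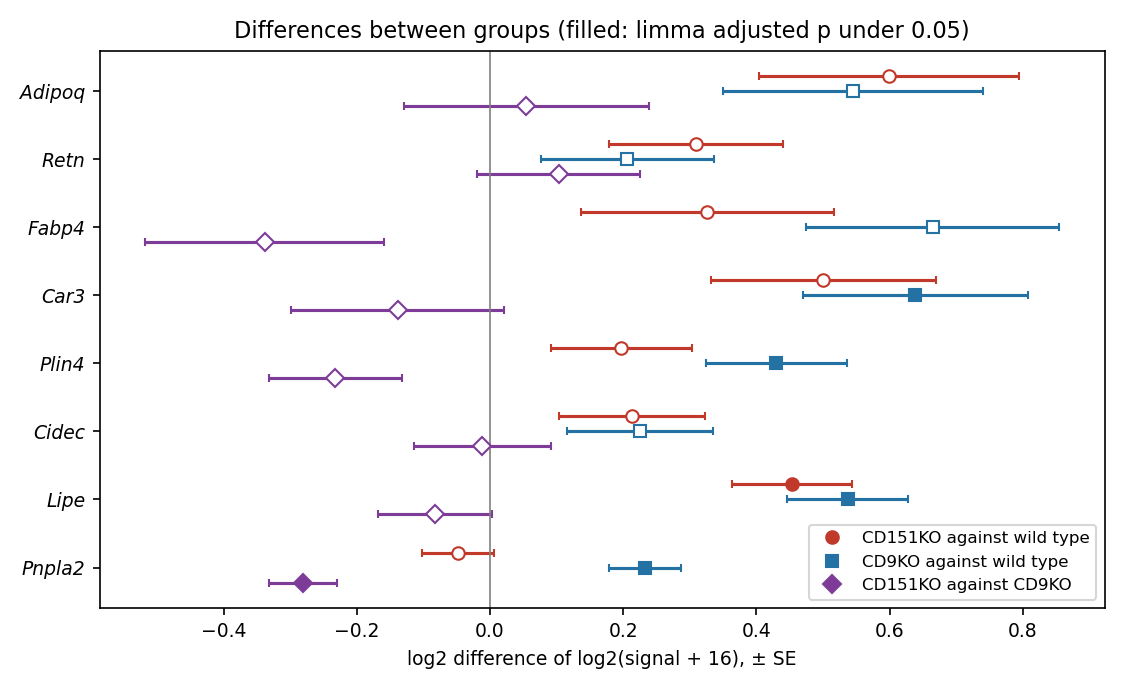
Log2 differences of log2(signal + 16) with their standard errors for the 8 measured genes in the 3 comparisons, on the horizontal axis; filled symbols have a limma adjusted p under 0.05. Of the filled symbols 4 belong to CD9KO against wild type, 1 (Lipe) to CD151KO against wild type and 1 (Pnpla2) to CD151KO against CD9KO.

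Among the secreted products, Adipoq, which codes for the hormone adiponectin made by adipocytes, had signals of 244, 321, 328 and 279 on the wild type arrays 1, 3, 4 and 5. On CD151KO arrays 1 to 5 it had 346, 583, 518, 373 and 469, and on CD9KO arrays 1 to 5 it had 601, 404, 560, 405 and 272. Every CD151KO array lay above every wild type array, whereas CD9KO held the highest array of all and, in number 5, an array below 3 of the 4 wild type arrays. The difference was 1.52-fold in CD151KO (log2 0.60, SE 0.195, adjusted p = 0.228) and 1.46-fold in CD9KO (log2 0.55, SE 0.195, adjusted p = 0.0981), and it passed in neither. Between the knockouts the log2 difference of Adipoq was 0.05 (SE 0.184, adjusted p = 0.879).

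Retn, which codes for resistin, an adipocyte hormone in mice, had signals of 140 to 178 in wild type, whereas CD151KO arrays spanned 167 to 265 and CD9KO arrays 143 to 239. Its groups overlapped in each comparison, and its log2 differences from wild type of 0.31 in CD151KO and 0.21 in CD9KO did not pass (adjusted p = 0.372 and 0.331). CD151KO number 2 was its highest array and CD9KO number 1 the next, the pair that also led for Adipoq in the reverse order.

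The RefSeq sequence before the transcription start is shown for Adipoq and Retn, which varied together from array to array, for Plin4, a droplet coat gene that rose in CD9KO, and for Pnpla2, whose pattern was apart from theirs. Each run is the 250 bases before the start in assembly GRCm38.p6, written 5′ to 3′ on the strand of the gene. Capitals mark matches on either strand to CCAAT, the letters bound by CCAAT box factors, and to TTNNGNAA, a C/EBP consensus.
Adipoq (chr16:23146286-23146535, plus strand): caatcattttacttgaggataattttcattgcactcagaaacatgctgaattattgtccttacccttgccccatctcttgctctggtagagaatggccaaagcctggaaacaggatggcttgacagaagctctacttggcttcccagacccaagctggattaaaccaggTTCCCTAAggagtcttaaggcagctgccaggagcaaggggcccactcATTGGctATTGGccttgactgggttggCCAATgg
Retn (chr8:3655520-3655769, plus strand): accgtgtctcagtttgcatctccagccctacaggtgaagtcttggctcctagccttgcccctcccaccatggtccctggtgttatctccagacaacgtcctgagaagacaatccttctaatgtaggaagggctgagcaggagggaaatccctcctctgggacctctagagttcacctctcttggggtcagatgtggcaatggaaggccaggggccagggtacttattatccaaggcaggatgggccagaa
Plin4 (chr17:56109783-56110032, minus strand): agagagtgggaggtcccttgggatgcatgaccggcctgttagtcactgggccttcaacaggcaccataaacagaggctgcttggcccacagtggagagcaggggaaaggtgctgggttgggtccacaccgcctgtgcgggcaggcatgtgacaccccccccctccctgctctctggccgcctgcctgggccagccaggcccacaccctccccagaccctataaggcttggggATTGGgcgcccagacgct
Pnpla2 (chr7:141454938-141455187, plus strand): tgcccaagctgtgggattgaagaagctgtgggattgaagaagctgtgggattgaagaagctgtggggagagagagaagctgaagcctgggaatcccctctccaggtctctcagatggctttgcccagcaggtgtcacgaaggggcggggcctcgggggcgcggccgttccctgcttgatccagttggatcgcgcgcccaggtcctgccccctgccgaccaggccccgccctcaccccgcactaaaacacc

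The window of Adipoq held 3 CCAAT matches, which begin 34, 27 and 7 bases before the start, and 1 match to the C/EBP consensus at 81 bases. The window of Plin4 held 1 CCAAT match at 18 bases, and the windows of Retn and Pnpla2 held none of the motifs searched. Of the 10 windows available for these genes CCAAT was present in 2 (Adipoq and Plin4), beside 33.8% of all 32851 windows of this length. TTNNGNAA was present in 4 of the 10 (those of Adipoq, Cidec and Plin1), beside 36.8% of all windows. AGGTCA, the single site of nuclear receptors (14% of windows), its direct repeat AGGTCANAGGTCA, which PPAR and RXR bind (0.0335%), and TATAAA (12.4%) matched none of the 10 windows available for these genes. A match or its absence describes only these letters in this window. Of the 10 genes 8 had a window, Car3 and Fabp4 being the others.

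Among the carriers, Car3 had signals of 2031, 2344, 2594 and 2406 on the wild type arrays. It had 2649, 4143, 3755, 2823 and 3411 on the CD151KO arrays and 4724, 3477, 4406, 3701 and 2397 on the CD9KO arrays. All CD151KO arrays again lay above wild type, and in CD9KO all but number 5 did. Car3 rose 1.56-fold in CD9KO (log2 0.64, SE 0.169, adjusted p = 0.0425), while in CD151KO the log2 difference of 0.50 did not pass (adjusted p = 0.249). The call in CD9KO was lost without any of wild type 1, 3, 4 or 5, CD151KO 3, or CD9KO 1, 2, 3 or 4 (adjusted p from 0.051 to 0.115). Of the 3 further probe sets of Car3, the pair above the filter had log2 differences of 0.73 and 0.50 in CD9KO (adjusted p = 0.0229 and 0.0909 in the fit over every probe set), and all 3 followed the first over the 14 arrays (r of 0.967, 0.886 and 0.881).

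Fabp4 had signals of 768, 846, 999 and 782 on the wild type arrays. The CD151KO arrays had 757, 1264, 1166, 965 and 1255, and the CD9KO arrays 1727, 1221, 1841, 1295 and 881. Its spread was wide in CD9KO, where 4 of 5 arrays lay above all wild type arrays. The 1.59-fold difference in CD9KO (log2 0.66, SE 0.19) just missed the threshold (adjusted p = 0.0534), and CD151KO had a log2 difference of 0.33 (adjusted p = 0.561). It passed in CD9KO without CD9KO number 5 (log2 0.82, adjusted p = 0.038), and likewise when CD151KO number 1 was left out (adjusted p = 0.036). The second Fabp4 probe set above the filter followed the first (r = 0.988) and passed in the fit over every probe set (log2 0.75, adjusted p = 0.0324).

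The droplet coat gene Plin4 rose in CD9KO without overlap. It had 101, 133, 139 and 140 on the wild type arrays, then 114, 155, 161, 151 and 166 for CD151KO and 195, 177, 187, 183 and 148 for CD9KO. The rise in CD9KO was 1.35-fold (log2 0.43, SE 0.106, adjusted p = 0.0342). In CD151KO the log2 difference was 0.20 (adjusted p = 0.526), and array number 1 lay below 3 of the 4 wild type arrays. Leaving out wild type 1 or 3, or CD9KO 1, 3 or 4, ended the call in CD9KO (adjusted p from 0.0558 to 0.0914).

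Cidec, whose product fuses lipid droplets, ranged from 152 to 194 over wild type arrays, from 147 to 239 over CD151KO arrays and from 191 to 223 over CD9KO arrays. Its groups overlapped, with the lowest and the highest array both in CD151KO (numbers 1 and 5). The log2 differences from wild type were 0.21 and 0.23 (adjusted p = 0.498 and 0.212).

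Of the lipases, Lipe, the gene of hormone-sensitive lipase, had 126, 125, 127 and 112 on the wild type arrays. CD151KO arrays had 152, 151, 187, 177 and 205, and CD9KO arrays 182, 221, 172, 191 and 162. All 10 knockout arrays lay above all 4 wild type arrays. Lipe rose 1.37-fold in CD151KO (log2 0.45, SE 0.0905, adjusted p = 0.0301) and 1.45-fold in CD9KO (log2 0.54, SE 0.0905, adjusted p = 0.0108), and the knockouts had a log2 difference of -0.08 from each other (adjusted p = 0.566). The CD151KO call was lost without wild type 1, 3, 4 or 5 or CD151KO 3, 4 or 5 (adjusted p from 0.0534 to 0.105), and with the replicate number as a block (log2 0.45, adjusted p = 0.0821). The CD9KO call held under all 26 alternatives that gave Lipe a value, with adjusted p from 0.0035 to 0.039. A second Lipe probe set lay below the filter at 23.8 to 40.8 and followed the first loosely (r = 0.259), and the mean of both gave log2 0.19 in CD151KO (adjusted p = 0.264) and 0.33 in CD9KO.

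Pnpla2, the gene of adipose triglyceride lipase, had 691, 641, 622 and 591 in wild type and 584, 621, 601, 628 and 636 in CD151KO. On the CD9KO arrays it had 745, 807, 789, 739 and 674. CD9KO lay above CD151KO on every array, and all but CD9KO number 5 also lay above every wild type array. Pnpla2 rose 1.18-fold in CD9KO against wild type (log2 0.23, SE 0.0544, adjusted p = 0.0275), had a log2 difference of -0.05 in CD151KO (SE 0.0544, adjusted p = 0.81), and was 1.21-fold lower in CD151KO than in CD9KO (log2 -0.28, SE 0.0513, adjusted p = 0.00524). In gene order Pnpla2 lies on chromosome 7 with 1 protein-coding gene between it and Cd151, whereas Lipe and Plin1 are on the same chromosome with 1462 and 863 genes between. The rise against wild type was lost without wild type 3, 4 or 5 or CD9KO 3 or 4 (adjusted p from 0.054 to 0.0684). With the mean of both Pnpla2 probe sets, of which the second lay below the filter at 20.8 to 28.9, the log2 difference was 0.14 in CD9KO against wild type (adjusted p = 0.0384) and -0.14 between the knockouts (adjusted p = 0.017).

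**Figure D2:**
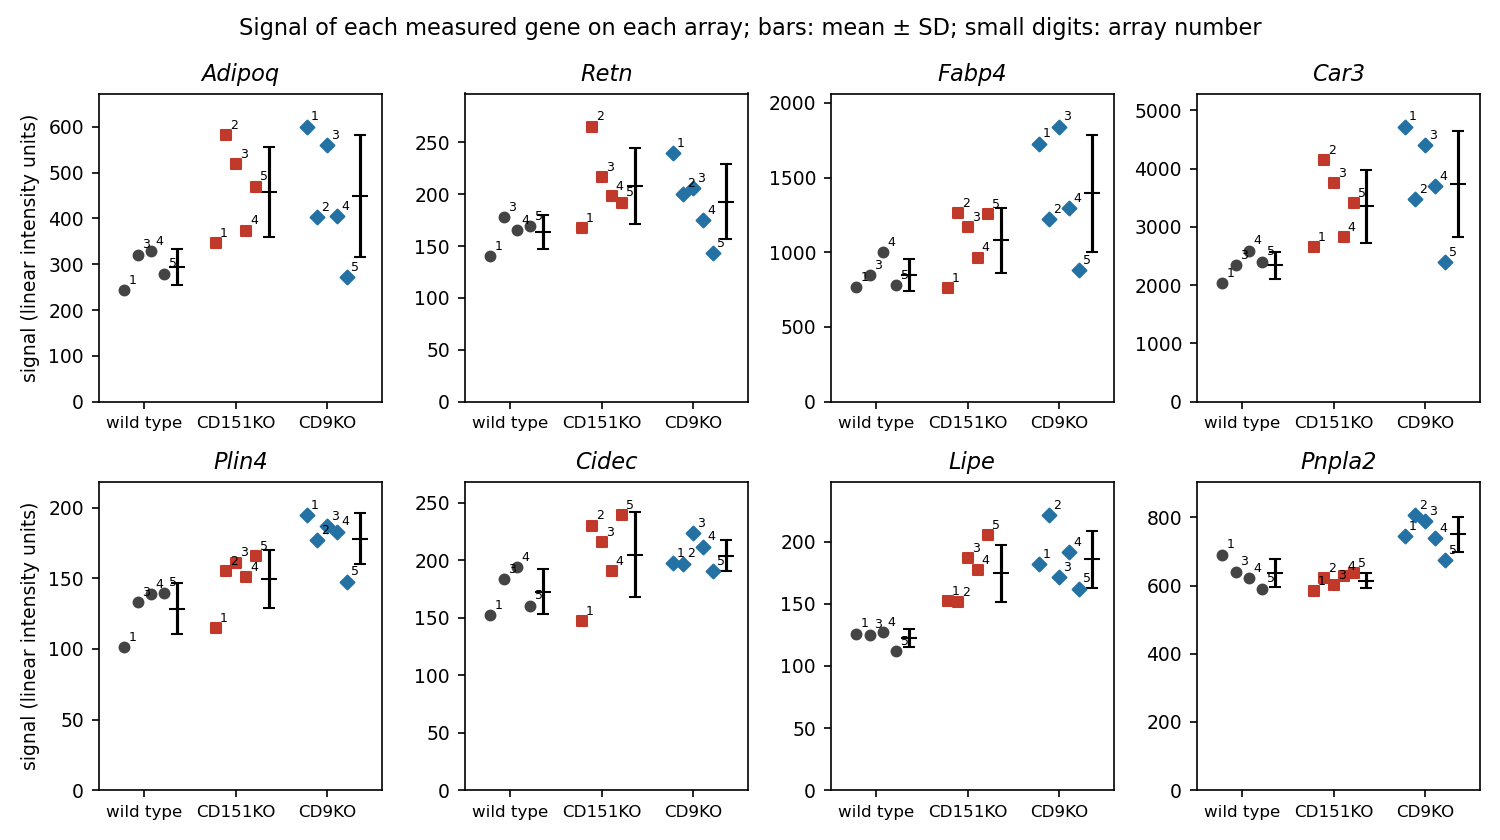
Signal in linear intensity units of each measured gene on each array, by group, with the array number beside each point and the mean ± SD as a bar (n = 4 in wild type and 5 in each knockout). Lipe in both knockouts lies above wild type on every array, Adipoq and Car3 do so in CD151KO, Plin4 in CD9KO, and CD9KO number 5 is the lowest CD9KO array for every gene.

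Without overlap, 3 of 8 genes were higher in CD151KO than in wild type (Adipoq, Car3 and Lipe), beside 2.84% of all genes tested, and 2 of 8 in CD9KO (Lipe and Plin4), beside 6.64%. Between the knockouts 1 of 8 was lower in CD151KO without overlap (Pnpla2), beside 4.06%.

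Array by array, most of the genes kept step with Adipoq, with lower values for the lipases. Over the 14 arrays Car3 had a Pearson r of 0.964 with Adipoq (Spearman rho 0.969), Retn 0.913 (rho 0.899) and Fabp4 0.876 (rho 0.851). Plin4 had 0.752 (rho 0.811) and Cidec 0.747 (rho 0.820). Lipe had 0.600 (rho 0.578) and Pnpla2 0.269 (rho 0.182). Over the 7 relations the adjusted permutation p of r was 3.5e-05 for Car3 and Retn, whose unadjusted 1e-05 is the smallest that 100000 permutations can give. It was 0.00021 for Fabp4, 0.003 for Plin4, 0.0031 for Cidec, 0.03 for Lipe and 0.35 for Pnpla2. For rho the adjusted permutation p ran from 7e-05 (Car3) to 0.0011 (Plin4) for those 5, and was 0.039 for Lipe and 0.53 for Pnpla2. The permutations shuffled the arrays across groups, so these p-values also reflect the difference between groups. Without wild type number 1 and CD9KO number 1, the arrays farthest from the median of Adipoq, r was 0.944 for Car3, 0.867 for Retn, 0.826 for Fabp4, 0.595 for Plin4, 0.754 for Cidec, 0.523 for Lipe and 0.257 for Pnpla2.

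Part of these values is the difference between groups, so the deviations from the group means were also set against each other, as a description. Their r with Adipoq was 0.981 for Car3, 0.944 for Fabp4, 0.900 for Retn, 0.748 for Plin4, 0.634 for Cidec, 0.341 for Pnpla2 and 0.127 for Lipe. Lipe and Pnpla2 had an r of 0.575 with each other. Within groups, then, the arrays high in Adipoq were also high in Car3, Fabp4 and Retn, while Lipe, which separated both knockouts from wild type on every array, had a value near 0. Both axes of each relation come from the same RNA and array.

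**Figure D3:**
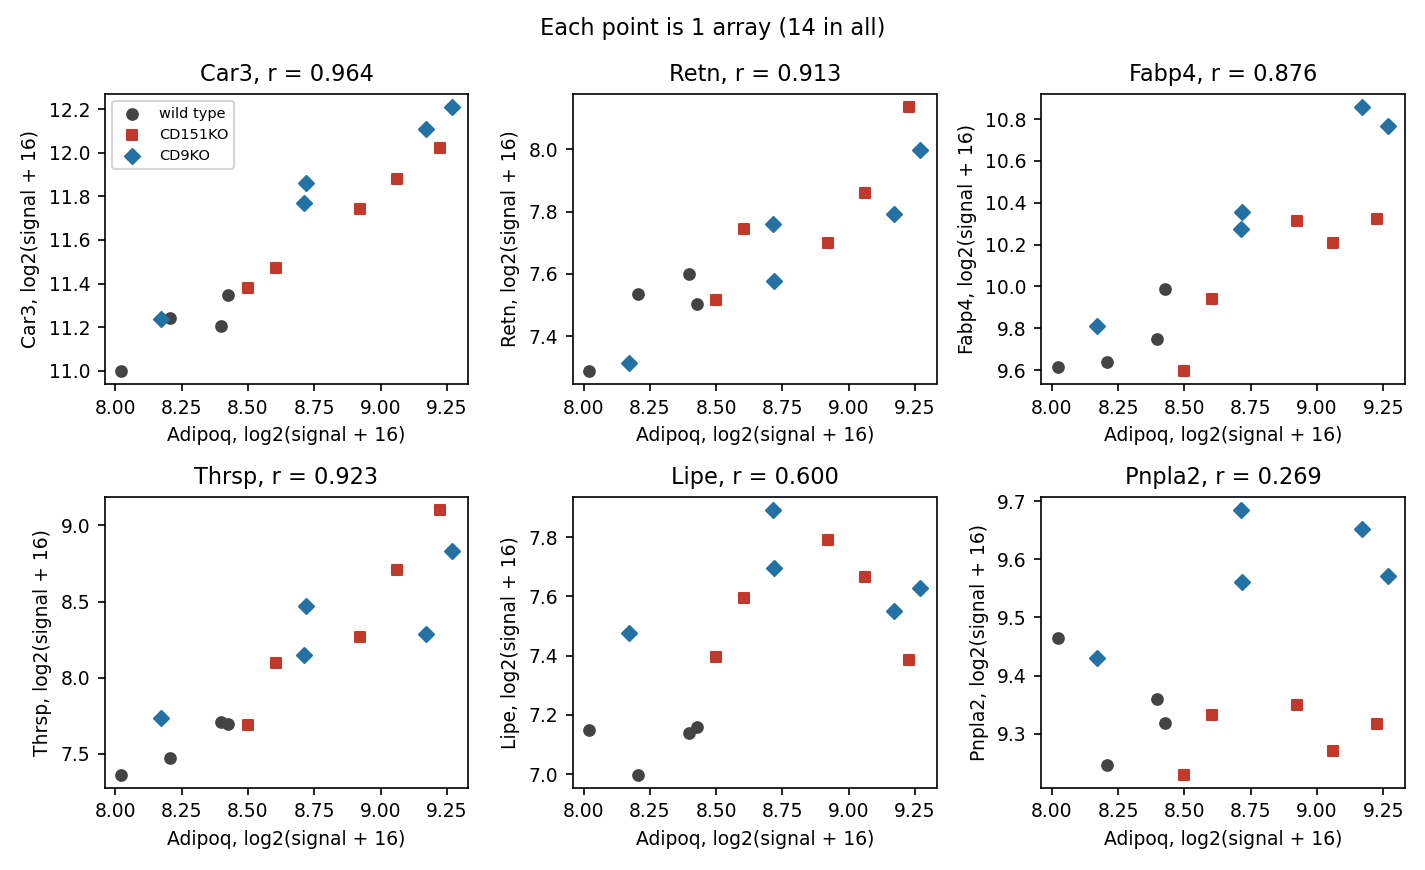
Each point is 1 of the 14 arrays, with log2(signal + 16) of Adipoq on the horizontal axis and that of another gene on the vertical axis, by group; r is Pearson's over the 14 arrays. Car3, Retn, Fabp4 and Thrsp (a gene of the other adipocyte list) lie along a line with r from 0.876 to 0.964, and Lipe (0.600) and Pnpla2 (0.269) scatter.

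Single arrays stood out across the 8 genes. Wild type number 1 was the lowest of all 14 arrays for 4 genes (Adipoq, Plin4, Car3 and Retn) and among the lowest 4 for 7 of 8, Pnpla2 being the exception. CD151KO number 1 was the lowest for 3 genes (Pnpla2, Cidec and Fabp4). Both also had the lowest scores on the leading principal component. CD9KO number 1 was the highest for 3 genes and among the highest 4 for 6, and CD9KO number 3 was among the highest 4 for 7. CD9KO number 5 lay below the 14-array mean for 6 of 8 genes (Lipe and Pnpla2 were the exceptions), as did CD151KO number 4 (Lipe and Retn excepted). The median over the 8 genes of an array's log2 deviation from the 14-array mean lay between -0.43 and -0.14 for wild type arrays, between -0.20 and 0.23 for CD151KO and between -0.16 and 0.33 for CD9KO, so the groups overlapped by this measure. With wild type 1 and CD151KO 1 both left out, 0 of 8 genes passed in CD151KO (Lipe, log2 0.51, adjusted p = 0.0541) and 3 of 8 in CD9KO. The count over all 12985 genes tested also fell in CD151KO, from 101 to 45.

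**Figure D4:**
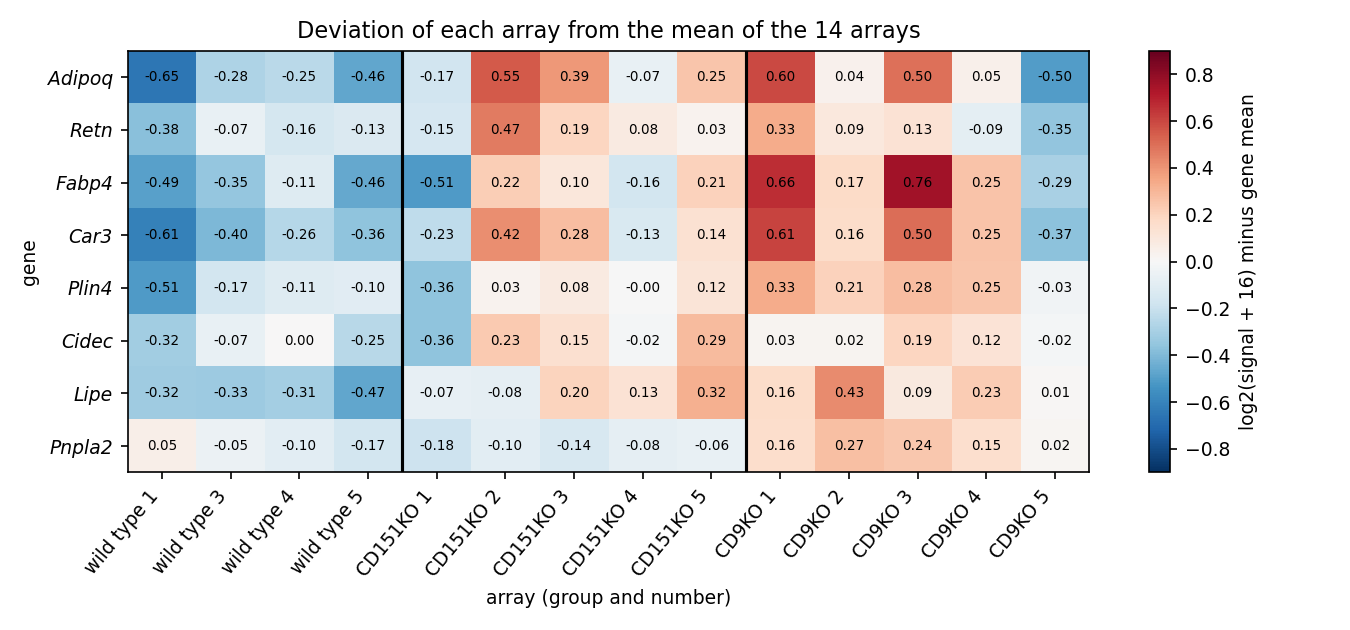
Log2(signal + 16) minus its mean over the 14 arrays, for the 8 genes (rows) on each array (columns, by group and number), with red above and blue below the mean. The 4 wild type columns and CD151KO number 1 are mostly blue, as are CD151KO number 4 and CD9KO number 5 (6 of 8 genes each), and CD9KO numbers 1, 2 and 3 lie above the mean in each row.

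Other genes that mark adipocytes were looked at next, from a list of 19 that holds none of the genes above. Of these 18 had a probe set and 14 passed the filter. In CD9KO 2 of 14 rose, 0 fell and 12 did not pass, beside 2.88% of all genes higher and 2.63% lower, and in CD151KO 0 of 14 passed by limma, beside 0.778% called. At an unadjusted p under 0.05 there were 6 of 14 in CD9KO and 2 of 14 in CD151KO, beside 25.4% and 11.1% of all genes. The medians of the list against wild type were log2 0.08 in CD9KO and 0.10 in CD151KO. Log2 differences lay above 0 for 8 of 14 in CD9KO and 11 of 14 in CD151KO, beside 51.2% and 54% of all genes. They ran from -0.12 to 0.95 in CD9KO and from -0.08 to 0.81 in CD151KO. Agpat2, an acyltransferase of triglyceride synthesis, rose in CD9KO from 447 ± 18.7 (SD, n = 4) to 551 ± 21.1 (n = 5) (log2 0.29, adjusted p = 0.0153) and had 484 ± 40.6 in CD151KO (n = 5). Trarg1, a regulator of glucose transporter traffic in fat cells, rose in CD9KO from 128 ± 23.8 to 170 ± 8.65 (log2 0.39, adjusted p = 0.039) and had 129 ± 15.0 in CD151KO. Both were lower in CD151KO than in CD9KO (adjusted p = 0.0402 and 0.0247), as Pnpla2 was, beside 4.12% of all genes lower there.

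Thrsp, a lipogenic gene of fat and liver, averaged 174 ± 22.2 over the wild type arrays (n = 4), against 335 ± 134 for CD151KO and 308 ± 89.7 for CD9KO (n = 5 each), and passed in neither (adjusted p = 0.175 and 0.0787). Its spread followed Adipoq, with r = 0.923 over the 14 arrays and 0.861 between deviations from group means. By r with Adipoq, Car3, Thrsp, Retn and Fabp4 held places 1, 2, 3 and 4 among 12984 genes. An r above 0.5 was found for 6 of the 14 other adipocyte genes, against 4.36% of all genes. Lep, the leptin gene, and Aqp7, the glycerol channel of fat cells, lay below the filter on every array, at 22.1 to 38.0 and 16 to 25.8, as did Mrap and Acvr1c at 26.2 to 48.6 and 28.1 to 37.8. The summed signal of the 18 genes was 3539 to 4389 over wild type arrays, 3797 to 5149 over CD151KO arrays and 4865 to 5648 over CD9KO arrays. Genes of high signal weigh most in such a sum. The mean log2(signal + 16) of the 18 genes was 7.106 to 7.206, 7.162 to 7.402 and 7.200 to 7.467, so by this measure both knockouts overlapped wild type. The amount of adipose tissue in each sample was not measured, and its part in the differences was not tested.

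Of the other genes of lipid droplets and lipolysis, 19 were tested. Of these, 0 passed against wild type in either knockout by limma, beside 0.778% and 5.51% of all genes, with medians of log2 0.01 and -0.04. At an unadjusted p under 0.05 there were 5 in CD151KO, 6 in CD9KO and 7 between the knockouts, beside 11.1%, 25.4% and 27.6% of all genes. Lpin1, a phosphatase of triglyceride synthesis, was lower in CD151KO than in CD9KO (log2 -0.38, adjusted p = 0.0427). It was 1 of 19, beside 4.12% of all genes lower, and the other 18 did not pass. Plin5, a perilipin of oxidative cells, averaged 120 ± 7.58 over wild type, 136 ± 12 over CD151KO and 145 ± 15.5 over CD9KO arrays (adjusted p = 0.427 and 0.0662). An r with Adipoq above 0.5 was found for 2 of the 19, beside 4.36% of all genes.

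Of 17 genes of fatty acid uptake and synthesis tested, 1 rose in CD151KO (Fasn), beside 0.454% of all genes, and 0 passed in CD9KO against wild type by limma, beside 5.51%. At an unadjusted p under 0.05 there were 5 in CD151KO, 4 in CD9KO and 9 between the knockouts, beside 11.1%, 25.4% and 27.6% of all genes. Between the knockouts 6 were higher in CD151KO and 0 lower, beside 5.99% and 4.12% of all genes. Fasn, the fatty acid synthase gene, had a mean signal of 1652 ± 131 (SD, n = 4) in wild type. CD151KO lay at 2288 ± 165 (n = 5) and CD9KO at 1854 ± 118 (n = 5), without overlap between the knockouts (log2 0.30, adjusted p = 0.00743). Acaca and Acly, which act before it in the pathway, had log2 differences of 0.37 and 0.22 between the knockouts (adjusted p = 0.00853 and 0.0127).

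Markers of other tissues that may lie in the sample were set beside these. Of the brown fat list 7 of 11 genes with a probe set passed the filter. By limma 0 of 7 passed in any comparison, beside 0.778%, 5.51% and 10.1% of all genes in CD151KO, CD9KO and between the knockouts. At an unadjusted p under 0.05 there was 1 in CD151KO, 1 in CD9KO and 1 between the knockouts, beside 11.1%, 25.4% and 27.6% of all genes. Ucp1, which defines brown fat, lay at 25.7 to 39.2 on the 14 arrays, below the filter, and Elovl3, Otop1 and Zic1 were also below it. Of the 7 brown fat genes 3 had an r with Adipoq above 0.5, beside 4.36% of all genes. They were Cox8b (0.776), Cidea (0.709), a droplet protein, and Cox7a1 (0.659), a subunit of cytochrome oxidase. Of 10 cardiac muscle genes, found in the sleeves of pulmonary veins, 1 rose in CD9KO, beside 2.88% of all genes, and 0 passed in CD151KO, beside 0.778%. The gene that rose was Myh6, a heavy chain of heart myosin (log2 0.72, adjusted p = 0.0275). In CD9KO against wild type 8 of 10 had an unadjusted p under 0.05, beside 25.4% of all genes, and 10 of 10 lay above 0, beside 51.2%. The median log2 difference there was 0.43, where that of the adipocyte and lipid droplet genes was 0.48. In CD151KO 1 of 10 had an unadjusted p under 0.05, beside 11.1% of all genes, 10 of 10 lay above 0, beside 54%, and the median was 0.16. Myh6 was also the 1 of 10 that was lower in CD151KO than in CD9KO (log2 -0.56, adjusted p = 0.0389), beside 4.12% of all genes. Of the 10 cardiac genes 6 had an r with Adipoq above 0.5, beside 4.36% of all genes. Their summed signal was 7969 to 9347 over wild type arrays, 7215 to 12690 over CD151KO arrays and 9937 to 14040 over CD9KO arrays, and its part in the differences was not tested. Of 12 skeletal muscle genes, 6 passed the filter and 0 of them passed in any comparison by limma, beside 0.778%, 5.51% and 10.1% of all genes. At an unadjusted p under 0.05 there were 0, 2 and 1 in CD151KO, CD9KO and between the knockouts, beside 11.1%, 25.4% and 27.6% of all genes. Acta1 and Ckm had log2 differences of 0.34 and 0.26 in CD9KO against wild type (limma adjusted p = 0.0561 and 0.126). Mybpc2 and Pvalb had 0.04 and -0.03 there, and 3 of the 6 lay above 0, beside 51.2% of all genes. An r with Adipoq above 0.5 was found for 1 of the 6 (Ckm, 0.595), beside 4.36% of all genes. Below the filter, Myh1, Myh2 and Myh4 lay at 9.31 to 13.6 on all arrays. The summed signal of the skeletal muscle list was 552 to 563, 548 to 590.5 and 552 to 718.

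Cell types of the lung, some of which also hold these transcripts, were counted in the same way. Of 8 alveolar macrophage genes 0 passed in any comparison by limma, beside 0.778%, 5.51% and 10.1% of all genes in CD151KO, CD9KO and between the knockouts. At an unadjusted p under 0.05 there were 0, 2 and 3, beside 11.1%, 25.4% and 27.6%. Of 10 capillary endothelial genes 1 rose in CD151KO, beside 0.454% of all genes, and 0 passed in CD9KO, beside 5.51%. At an unadjusted p under 0.05 there were 4 in CD151KO and 2 in CD9KO, beside 11.1% and 25.4%. The gene that rose was Rbp7, a retinol-binding protein gene (49.6 ± 1.76 to 137 ± 64.9, log2 1.11, adjusted p = 0.0417). Its wild type signals, at 47.6 to 51.7, all lay below the level of the filter (53.4). Its highest arrays were CD151KO numbers 3 and 2, at 217 and 196, and none of the 10 had an r with Adipoq above 0.5. Between the knockouts 3 of the 10 were called, beside 10.1% of all genes: Rbp7 and the tight junction gene Cldn5 were higher in CD151KO (adjusted p = 0.0283 and 0.0429) and the carbonic anhydrase gene Car4 was lower (adjusted p = 0.0129). Of 8 lipofibroblast and progenitor genes 1 rose in CD9KO, the growth factor receptor gene Pdgfra (2676 ± 131 to 3207 ± 299, log2 0.26, adjusted p = 0.0313), beside 2.88% of all genes. Another 1 of 8, the lipofibroblast factor Tcf21, was lower in CD151KO than in CD9KO (log2 -0.36, adjusted p = 0.0377), beside 4.12% of all genes. At an unadjusted p under 0.05 there were 3 in CD151KO, 3 in CD9KO and 1 between the knockouts, beside 11.1%, 25.4% and 27.6%. Of the 8, 4 lay above 0 in each comparison. Pi16 had log2 differences of 0.27 in CD151KO and 0.20 in CD9KO (adjusted p = 0.198 and 0.156). It was the 1 of 8 with an r with Adipoq above 0.5 (0.659), beside 4.36% of all genes. Of 8 mesothelial, 7 B cell and 3 thymus genes past the filter, 0 passed in any comparison by limma. Over all genes the shares called were 0.778%, 5.51% and 10.1%. At an unadjusted p under 0.05 the mesothelial list had 1 in CD151KO, 0 in CD9KO and 2 between the knockouts. The B cell list had 0, 1 and 0 and the thymus list 0, 0 and 0, beside 11.1%, 25.4% and 27.6% of all genes. Mesothelial log2 differences from wild type were above 0 for 7 of 8 in CD151KO and 1 of 8 in CD9KO, beside 54% and 51.2%. Between the knockouts 8 of 8 were higher in CD151KO, beside 50.6%. The B cell genes ran against Adipoq, with a median r of -0.44 over the 14 arrays. Of the 7, 0 had a log2 difference above 0 in CD9KO against wild type, beside 51.2% of all genes. Ms4a1, which codes for the B cell surface protein CD20, had 732 on wild type number 1 and 926 on CD151KO number 1, the arrays apart on the leading principal component, and 201 to 462 on the others. The summed signal of the B cell list was 1122 to 2244 over wild type, 1062 to 2747 over CD151KO and 969 to 1457 over CD9KO arrays, and its part in the differences of the adipocyte genes was not tested. The thymus list summed to 410 to 423, 373 to 496 and 376 to 444.

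Outside all lists, the genes whose pattern was most like that of Adipoq, by Pearson's r over the 14 arrays, were Aoc3, Cox5a, Tmem45b, Zfp651, Echdc1, Rnf10, Cox6a2, Ephx2, Sult1d1 and Ndrg4, with r from 0.864 down to 0.777. Aoc3, an amine oxidase gene, led, at 81.0 to 96.5 over wild type, 97.2 to 145 over CD151KO and 84.1 to 127 over CD9KO arrays, and an r of 0.796 between deviations from group means. Of the 10, 1 rose in CD9KO (Rnf10, log2 0.13, adjusted p = 0.0321), beside 2.88% of all genes, and the rest passed in no comparison.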

How the data were processed

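Total RNA of 14 mouse lung samples was measured on 1-colour Affymetrix arrays. The deposited values are intensities on a linear scale, 1 per probe set and array, normalized by the authors per the labels. Per the submitters' processing notes, Affymetrix Expression Console and MAS5 were used, though neither version nor role is stated. The normalization itself is not given in the sources used. Signals ran from 4.78 to 29667 and array medians from 84.1 to 86.2. Precision is limited by how many arrays each group has.

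Groups and array numbers come from the sample titles. Probe sets with 1 gene symbol (34958 of 45101) were named, and the probe set of highest mean stood for each gene. Genes below the 40th percentile of mean level (log2 6.12, a signal of 53.4) were left out, and 12985 were tested. Values were taken as log2(signal + 16), so fold changes understate those of low genes. With limma 3.58.1 (R 4.3.3), 1 model with 3 groups was fitted to the 14 arrays (mean-variance trend), two-sided, with Benjamini-Hochberg adjustment over all genes tested. The fit was tested on simulated data. Correlations used permutations (two-sided).

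The genes, the further lists and the rule for named genes (all 8 measured, up to 4 per list by smallest p, the 10 most like Adipoq) were chosen with earlier results of these data known. Genes named beyond the rule (Lep, Aqp7, Mrap, Acvr1c, Ucp1, Elovl3, Otop1, Zic1, Myh1, Myh2 and Myh4, as defining markers below the filter) were chosen after their values were seen. Cox8b, which passed the filter, was likewise named beyond the rule, for its r with Adipoq. Alternatives covered pseudocounts of 1 and 64, scaling, filters, probe sets, groups in the fit, trend, weighting of arrays, a block on the replicate number, and each array left out. Figures were drawn with matplotlib 3.10.9.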

Additional observations from a re-analysis of the deposited data

Results flagged for a closer look

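In 3 of 24 combinations of gene and group, 1 array lay far from the others of its group by Dixon's criterion, which chance alone meets in about 1 of 20. Lipe on wild type number 5 had a signal of 112, below the other wild type arrays at 125 to 127. Plin4 on wild type number 1 had 101, with the others at 133 to 140, and Plin4 on CD151KO number 1 had 114, with the others at 151 to 166.

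Pnpla2 differed between the knockouts, with a log2 difference of -0.28 in CD151KO against CD9KO (limma adjusted p = 0.00524). CD9KO was higher on every array.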

How the results depend on the processing

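The count of the 8 genes that passed in CD151KO against wild type was 1, and it fell to 0 when probe sets were averaged per gene, with only the compared groups in the fit, with the replicate block, and when wild type 1 and CD151KO 1 were both left out. Leaving out 1 array at a time gave 0 to 1. In CD9KO against wild type the count was 4, with 2 when only the compared groups entered the fit and 1 to 5 when 1 array was left out. Between the knockouts it was 1 under each alternative. The block changed no other call of these genes. Same-numbered arrays were not taken as pairs, since their deviations did not all correlate above 0.1 (-0.13 to 0.59). Wild type and CD151KO arrays numbered 1, 4 and 5 gave 0.59, 0.45 and 0.26, and 6 of 14 arrays correlated best with their own number, so a batch shared by some numbers may exist, which the labels do not state. With the block, 109, 1591 and 1821 genes of all tested passed in CD151KO and CD9KO against wild type and between the knockouts, where the main counts were 101, 715 and 1313.

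The median log2 difference of the 8 genes ran over the alternatives from 0.22 to 0.41 in CD151KO, 0.37 to 0.53 in CD9KO and -0.21 to -0.05 between the knockouts. Counts over all genes ran from 24 to 335, 158 to 1591 and 682 to 1939. Differences that missed the threshold changed sign for Pnpla2 in CD151KO against wild type without both number 1 arrays (log2 0.0089), for Adipoq between the knockouts with array weights (-0.022) and over arrays left out (-0.10 to 0.17), and for Cidec between the knockouts without both number 1 arrays (0.093) and over arrays left out (-0.069 to 0.093). Why these values moved was not tested. Fabp4 in CD9KO passed with quantile normalization, array weights, averaged probe sets or a 60th percentile filter (adjusted p from 0.0376 to 0.0482). Of the 16 probe sets 5 lay below the level filter, where no fold change was read.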
